A study of Mus musculus with 8 samples.

Results

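The genes described here are named as aldehyde dehydrogenases, and most encode enzymes that oxidise aldehydes to acids with NAD+ or NADP+ as electron acceptor. They were chosen by gene name: Aldh1a1, Aldh1a2, Aldh1a3, Aldh1b1, Aldh1l1, Aldh2, Aldh3a1, Aldh3a2, Aldh7a1 and Aldh18a1. Each of the 10 had exactly 1 array row whose annotation carried that symbol alone, among 19938 genes measured. The RNA was from primary mammary tumors that arose in FvB mice with the MMTV-Neu transgene, in which a viral promoter drives an Erbb2 homolog in mammary epithelium. A FACS sort gave, from each tumor, highly purified tumor-initiating cells (TICs) and non-TIC cells labelled CD24-, and both groups carry the transgene. There were 4 arrays of each fraction, from tumors N251, N260 and N283 and from an equal mixture of the cells of N222 and N229. Neither the markers of the TIC gate nor the ages of the mice were known.

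Aldehyde dehydrogenases are known for different tasks. The ALDH1A enzymes make retinoic acid from retinal, ALDH2 and ALDH1B1 clear acetaldehyde in mitochondria, and other members act on folate, fatty aldehydes, lysine products or proline precursors. High aldehyde dehydrogenase activity in a fluorescent substrate assay is widely used to enrich stem-like and tumor-initiating cells of the human breast, and Aldh1a1 and Aldh1a3 are the members most often linked to it.

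The values are log2 intensities, and a difference is the TIC minus the CD24- value on that scale. Levels are not compared between genes, because probes differ in how strongly they bind. Epithelial RNA was present in both fractions, with Epcam, an epithelial adhesion molecule, at 11.99 to 12.19 in the TIC arrays and 11.06 to 11.99 in the CD24- arrays. Cd24a, which encodes the antigen named in the sort, was at 10.53 to 12.12 in the CD24- arrays and 12.06 to 12.50 in the TIC arrays. Leukocyte RNA differed widely: the mean of 15 pan-leukocyte genes was 6.58 to 6.82 in the TIC arrays, and in the CD24- arrays it was 11.34 for N251, 10.45 for N260, 9.45 for N283 and 8.62 for the pool of N222 and N229. The CD24- array of N251 stood farthest from its group, with a mean absolute deviation of 0.27 over all genes against 0.11 to 0.24 for the other 7 arrays. Such bulk samples cannot tell fewer cells of a type from less RNA per cell.

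None of the 10 aldehyde dehydrogenase genes was called different between the fractions. With limma, 0 of 10 had an adjusted p under 0.05, where 0.792% of all genes did, and 1 of 10 had an unadjusted p under 0.05, where 14.3% of all genes did. With the tumor as a replicate block, which compares the fractions within tumors, 0 of 10 were called (1.96% of all genes), but 7 of 10 had an unadjusted p under 0.05, where 22.3% of all genes did. These were Aldh1a3, Aldh1l1, Aldh3a2 and Aldh18a1 as higher (14.2% of all genes) and Aldh1a2, Aldh1b1 and Aldh3a1 as lower (8.08% of all genes). The mean difference was above 0 for 7 genes and below 0 for 3, from -0.25 (Aldh1a2) to 0.48 (Aldh1a3), with a median of 0.25 against 0.04 over all genes. A random tumor block called 1 of 10, Aldh1a3, as higher (5.20% of all genes, and 2.16% as higher). Without both arrays of N251 the median of the 10 differences was 0.07, against 0.03 over all genes.

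For 6 of the 10 genes all 4 tumors gave differences of 1 sign, as they did for 35.0% of all genes. Aldh1a3, Aldh3a2 and Aldh18a1 were higher in the TIC array of every tumor (23.2% of all genes), and Aldh1a2, Aldh1b1 and Aldh3a1 were lower in every tumor (11.8% of all genes). By tumor, 7 of 10 genes were higher in the TIC array in N251 and 7 in N260, against 59.3% and 64.6% of all genes. In N283 it was 5 of 10 and in the pool 4 of 10, against 52.3% and 52.6%. The median difference of the 10 genes went from 0.42 in N251 to 0.20 in N260, -0.01 in N283 and -0.06 in the pool.

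**Figure D1:**
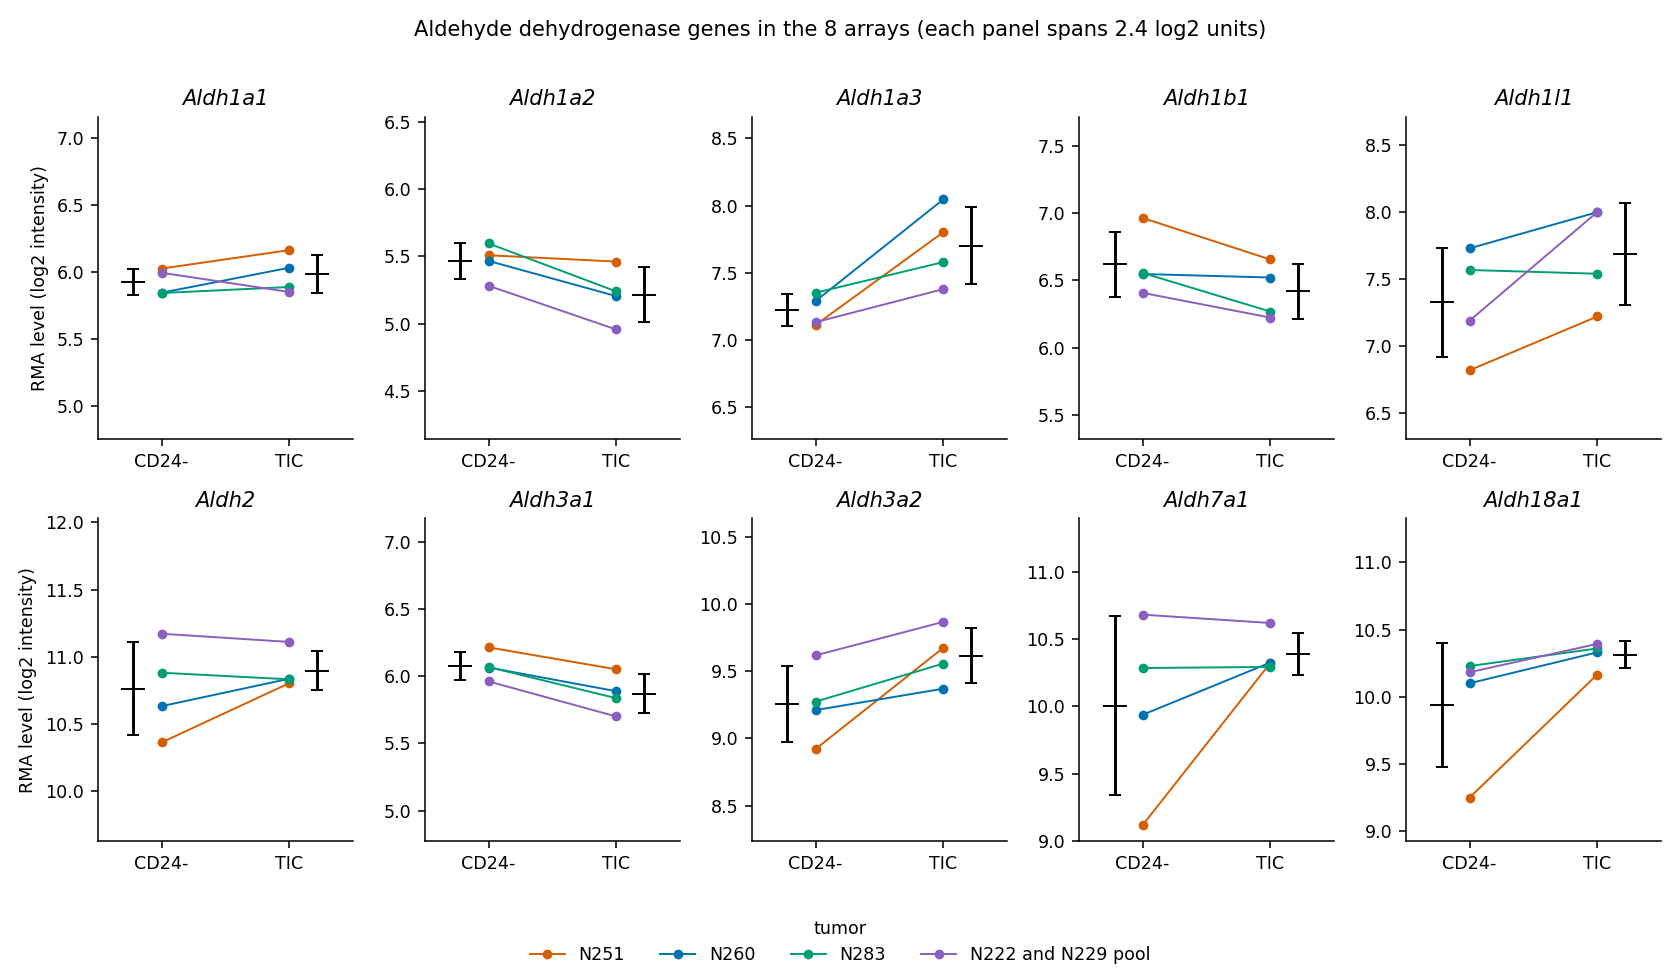
Log2 intensity of each of the 10 genes (vertical axis) in the CD24- and TIC arrays, with a line joining the arrays of 1 tumor and black bars giving the mean and SD of the 4 arrays of a fraction. Aldh1a3 is the gene whose 2 groups do not overlap, while for Aldh7a1 and Aldh18a1 the CD24- array of N251 lies lowest, at 9.12 and 9.25.

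Among the enzymes that make retinoic acid, Aldh1a3 showed the difference with the lowest p of the 10 genes. Its TIC values were 7.80 for N251, 8.05 for N260, 7.58 for N283 and 7.38 for the pool, and its CD24- values were 7.11, 7.29, 7.35 and 7.13 in the same order. The lowest TIC value lay just above the highest CD24- value, and the groups did not overlap, as for 5.19% of all genes with the TIC fraction above. Aldh1a3 averaged 7.70 ± 0.29 (SD, n = 4) over the TIC arrays and 7.22 ± 0.12 over the CD24- arrays. The log2 difference was 0.48 ± 0.15 (SE), which is 1.40-fold, with a 95% interval of 0.15 to 0.81 without a block and 0.18 to 0.78 with the replicate block. It was 0.69 in N251 and 0.76 in N260 but 0.23 in N283 and 0.25 in the pool. The gene was not called in limma (adjusted p = 0.197, and 0.114 under the replicate block). Under a random tumor block the adjusted p was 0.0496, next to the threshold, and leaving out 1 array or 1 tumor gave differences of 0.37 to 0.59.

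Aldh1a1, the retinal dehydrogenase best known from the fluorescent assay, had a difference near 0. Its TIC values were 6.16, 6.03, 5.89 and 5.85 in N251, N260, N283 and the pool, and its CD24- values 6.03, 5.85, 5.84 and 6.00. The groups overlapped almost completely. The difference was 0.06 ± 0.10 (SE, adjusted p = 0.872), with a 95% interval of -0.17 to 0.29. It was higher in 3 tumors and lower in the pool, and -0.003 without the TIC array of N251. All 8 values were dim: the lower quartile of genes on an array was 6.05 to 6.28, and no background measure was used here that would tell a low level from none. Aldh1a7, its neighbour in the genome and a close paralog, was at 4.79 and 4.73 in the 2 fractions, and how far the rows of the pair share signal was not tested.

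Aldh1a2, the main retinal dehydrogenase of the embryo, was lower in the TIC array of every tumor by a small amount. Its TIC values were 5.46, 5.20, 5.24 and 4.96, and its CD24- values 5.51, 5.47, 5.60 and 5.28, in the same order of tumors. The groups overlapped because the TIC array of N251 lay among the CD24- arrays. The difference was -0.25 ± 0.12 (SE, adjusted p = 0.406, 95% interval -0.53 to 0.03), and -0.32 without N251. With the replicate block the interval was -0.45 to -0.04 (adjusted p = 0.174).

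RefSeq promoter entries (build GRCm38.p6) were found for 6 of the 10 genes, and 4 are printed: those of Aldh1a1 and Aldh1a2, as retinal dehydrogenase genes with dim rows here, and those of Aldh3a2 and Aldh18a1, as genes higher in the TIC array of every tumor. Each is the 250 bases before a start site, 5′ to 3′ on the gene's strand, with every CG dinucleotide in capitals. The Aldh1a1 window (chr19:20601718-20601967, plus strand) belongs to 1 of 2 listed start sites. The others are those of Aldh1a2 (chr9:71215539-71215788, plus strand), Aldh3a2 (chr11:61267187-61267436, minus strand) and Aldh18a1 (chr19:40588464-40588713, minus strand).
Aldh1a1: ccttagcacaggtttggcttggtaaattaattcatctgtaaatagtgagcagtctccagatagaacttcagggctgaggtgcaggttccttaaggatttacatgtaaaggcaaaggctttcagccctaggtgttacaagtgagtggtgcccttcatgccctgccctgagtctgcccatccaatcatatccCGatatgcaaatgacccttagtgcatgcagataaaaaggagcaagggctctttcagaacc
Aldh1a2: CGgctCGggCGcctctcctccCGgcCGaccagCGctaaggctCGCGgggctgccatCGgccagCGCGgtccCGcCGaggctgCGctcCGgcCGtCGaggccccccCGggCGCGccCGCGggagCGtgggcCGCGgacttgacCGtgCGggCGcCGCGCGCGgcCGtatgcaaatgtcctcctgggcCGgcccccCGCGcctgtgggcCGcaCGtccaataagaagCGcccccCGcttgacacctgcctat
Aldh3a2: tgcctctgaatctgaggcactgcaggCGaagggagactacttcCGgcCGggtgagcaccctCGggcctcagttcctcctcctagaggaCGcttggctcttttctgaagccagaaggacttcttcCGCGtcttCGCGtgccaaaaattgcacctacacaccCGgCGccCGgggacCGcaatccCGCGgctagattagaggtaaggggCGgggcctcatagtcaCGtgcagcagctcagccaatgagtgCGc
Aldh18a1: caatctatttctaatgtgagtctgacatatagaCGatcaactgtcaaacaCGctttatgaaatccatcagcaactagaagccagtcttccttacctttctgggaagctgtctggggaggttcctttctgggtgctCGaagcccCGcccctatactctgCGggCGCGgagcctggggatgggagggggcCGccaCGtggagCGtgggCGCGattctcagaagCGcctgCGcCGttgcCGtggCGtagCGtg

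The windows differed widely in CG, a motif that reads the same on both strands and is the site of most DNA methylation in mammals. Aldh1a1 had 1 CG in the window shown, and 92.1% of all 32851 promoter windows of this length hold at least as many. At its other start site it had 3, a count that 71% of windows reach. Aldh1a2 had 40, a count that 1.31% of windows reach. Aldh3a2 and Aldh18a1 each had 18, which 21.7% of windows reach. The Aldh1l1 and Aldh1b1 windows, not printed, had 7 and 4 (46.3% and 62.2%). The array data hold no measure of methylation.

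The CCAAT motif, searched as CCAAT or ATTGG, was in the Aldh1a1 window shown (1 match), in those of Aldh1a2 (1), Aldh3a2 (1) and Aldh1l1 (2), and in 33.8% of all windows. The GC box, searched as GGGCGG or CCGCCC, had 1 match each in Aldh1b1, Aldh1l1, Aldh3a2 and Aldh18a1 and was in 32.7% of all windows; each of its matches holds a CG counted above. The letters TGACNNNGC or GCNNNGTCA, the core of the antioxidant response element, were in the Aldh1a2 window (1 match) and in 10.2% of all windows. The letters TATAAA or TTTATA were in none of the 7 windows of these genes and in 12.4% of all windows.

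Neither mitochondrial acetaldehyde enzyme was called. Aldh2, which encodes the main enzyme of acetaldehyde removal, had TIC values of 10.80, 10.84, 10.83 and 11.11 in N251, N260, N283 and the pool and CD24- values of 10.36, 10.63, 10.88 and 11.17. The 4 TIC values lay inside the range of the CD24- values. The difference was 0.13 ± 0.17 (SE, adjusted p = 0.791, 95% interval -0.25 to 0.52), at 0.44 for N251, 0.20 for N260, -0.05 for N283 and -0.06 for the pool, and 0.03 without N251. Aldh1b1, its homolog, had TIC values of 6.66, 6.52, 6.27 and 6.22 and CD24- values of 6.97, 6.55, 6.56 and 6.41. It was lower in the TIC array of all 4 tumors, although the groups overlapped. Both arrays of N251 were the highest of their fraction. The difference was -0.20 ± 0.15 (SE, adjusted p = 0.586, 95% interval -0.54 to 0.14), and the interval with the replicate block, -0.401 to -0.002, ended next to 0 (adjusted p = 0.222).

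Aldh1l1, which oxidises formyl-tetrahydrofolate in the cytosol, varied as much between tumors as between fractions. Its TIC values were 7.22 for N251, 8.00 for N260, 7.54 for N283 and 8.00 for the pool, and its CD24- values were 6.82, 7.73, 7.57 and 7.19. Both arrays of N251 were the lowest of their fraction. The difference was 0.36 ± 0.24 (SE, adjusted p = 0.535, 95% interval -0.18 to 0.90), with an interval of 0.01 to 0.71 under the replicate block (adjusted p = 0.214). The pool had the largest difference, 0.81, whereas N283 had -0.03.

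Aldh3a1 and Aldh3a2, neighbouring genes for enzymes of aromatic and fatty aldehydes, differed in opposite directions in every tumor. Aldh3a1, known from the cornea and stomach, had TIC values of 6.05, 5.89, 5.84 and 5.70 and CD24- values of 6.21, 6.06, 6.07 and 5.96 in N251, N260, N283 and the pool. Its differences in the 4 tumors were the most alike of the 10 genes, from -0.26 to -0.16 (SD 0.046), with a mean of -0.21 ± 0.10 (SE, adjusted p = 0.404, 95% interval -0.44 to 0.03). With the replicate block the SE was 0.07 and the interval -0.38 to -0.04 (adjusted p = 0.168). All its values were dim. Aldh3a2, which encodes the fatty aldehyde dehydrogenase of the endoplasmic reticulum and peroxisome, had TIC values of 9.67, 9.37, 9.56 and 9.87 and CD24- values of 8.92, 9.21, 9.27 and 9.62. The groups overlapped through the CD24- array of the pool. The difference was 0.36 ± 0.16 (SE, 1.28-fold, adjusted p = 0.358, 95% interval -0.01 to 0.73), and the interval was 0.07 to 0.65 with the replicate block (adjusted p = 0.164). It was 0.75 in N251 and 0.16 to 0.28 in the others, with a mean of 0.23 without N251. The difference between the 2 neighbours was not tested.

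Aldh7a1, which acts in lysine breakdown and in making betaine, had the most uneven differences. Its TIC values were 10.32, 10.33, 10.29 and 10.62 in N251, N260, N283 and the pool, a narrow range (SD 0.15). Its CD24- values were 9.12, 9.94, 10.29 and 10.68, the widest range among the 10 genes in that fraction (SD 0.67). The difference was thus 1.21 for N251, 0.39 for N260, 0.01 for N283 and -0.06 for the pool, with a mean of 0.38 ± 0.29 (SE, adjusted p = 0.594, 95% interval -0.27 to 1.04). Without both arrays of N251 it was 0.11.

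Aldh18a1 differs in role, since it encodes the synthase that makes the proline precursor pyrroline-5-carboxylate from glutamate. It was at 10.17, 10.33, 10.36 and 10.39 in the TIC arrays and at 9.25, 10.10, 10.23 and 10.18 in the CD24- arrays of N251, N260, N283 and the pool. The TIC array was higher in all 4 tumors, and the groups overlapped by the TIC array of N251 alone. The difference was 0.37 ± 0.21 (SE, 1.29-fold, adjusted p = 0.457, 95% interval -0.10 to 0.84), and the replicate block gave 0.01 to 0.74 (adjusted p = 0.218). It was 0.91 in N251 and 0.13 to 0.23 in the others, with a mean of 0.19 without N251.

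**Figure D2:**
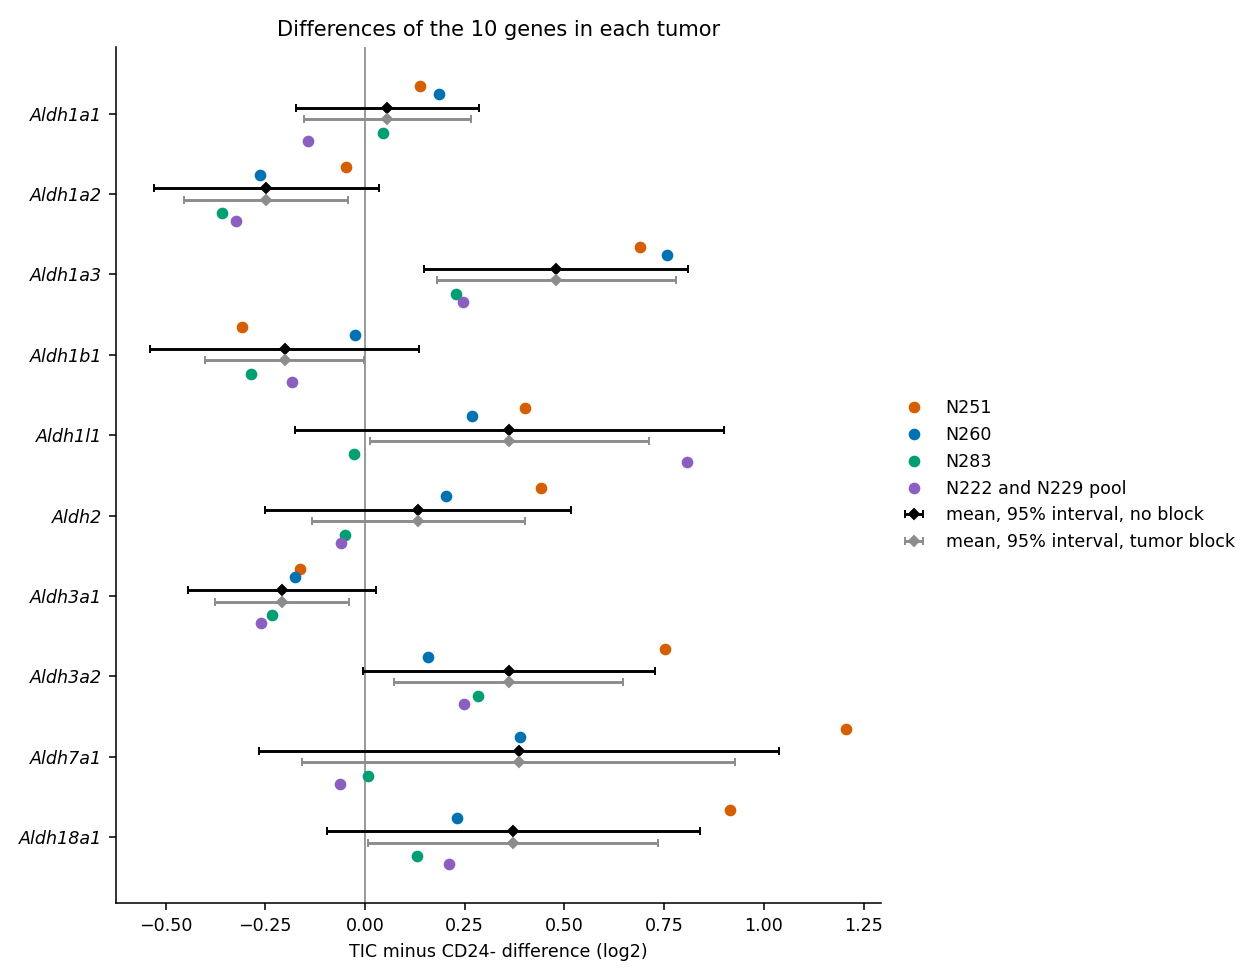
TIC minus CD24- difference (horizontal axis, log2) of each of the 10 genes: coloured points are the tumors and diamonds the mean with its unadjusted 95% interval from limma, black without a block and grey with the tumor as a replicate block. The black interval leaves out 0 for Aldh1a3 alone (14.3% of all genes) and the grey one for 7 of the 10 genes (22.3% of all genes). N251 gives the largest difference of Aldh7a1 (1.21), Aldh18a1 (0.91), Aldh3a2 (0.75) and Aldh2 (0.44).

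In the CD24- arrays the levels of several genes rose over the tumors as the leukocyte markers fell. From N251 through N260 and N283 to the pool the pan-leukocyte mean went down from 11.34 to 8.62 and the mean of 22 macrophage markers from 11.22 to 8.95, while Aldh7a1 went up from 9.12 to 10.68, Aldh2 from 10.36 to 11.17 and Aldh3a2 from 8.92 to 9.62, each in the same order of tumors. Aldh18a1 did not keep that order between N283 (10.23) and the pool (10.18), and Aldh1a3 did not follow it, at 7.11 to 7.35 in the 4 arrays. Aldh1b1 and Aldh3a1 were instead highest in N251 (6.97 and 6.21) and lowest in the pool (6.41 and 5.96). In the TIC arrays, where the pan-leukocyte mean was 6.58 to 6.82, both were also highest in N251 (6.66 and 6.05). They were lowest in the pool there too (6.22 and 5.70). Aldh2, Aldh7a1 and Aldh3a2 were likewise highest in the pool among the TIC arrays (11.11, 10.62 and 9.87), although the other tumors did not keep the order. Of the 15 pan-leukocyte genes 8 were called lower in the TIC fraction and 0 higher, and of the 22 macrophage markers 16 lower and 0 higher. Ptprc, which encodes the leukocyte antigen CD45, was at 11.74, 10.87, 9.52 and 8.61 in the CD24- arrays and 5.64 to 6.23 in the TIC arrays. The mean of 14 luminal epithelial markers was 9.21 in the CD24- array of N251 and 9.79, 10.03 and 9.99 in those of N260, N283 and the pool, against 10.05 to 10.08 in the TIC arrays, with 0 of 14 called. The part of these cell mixtures in the differences was not tested.

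**Figure D3:**
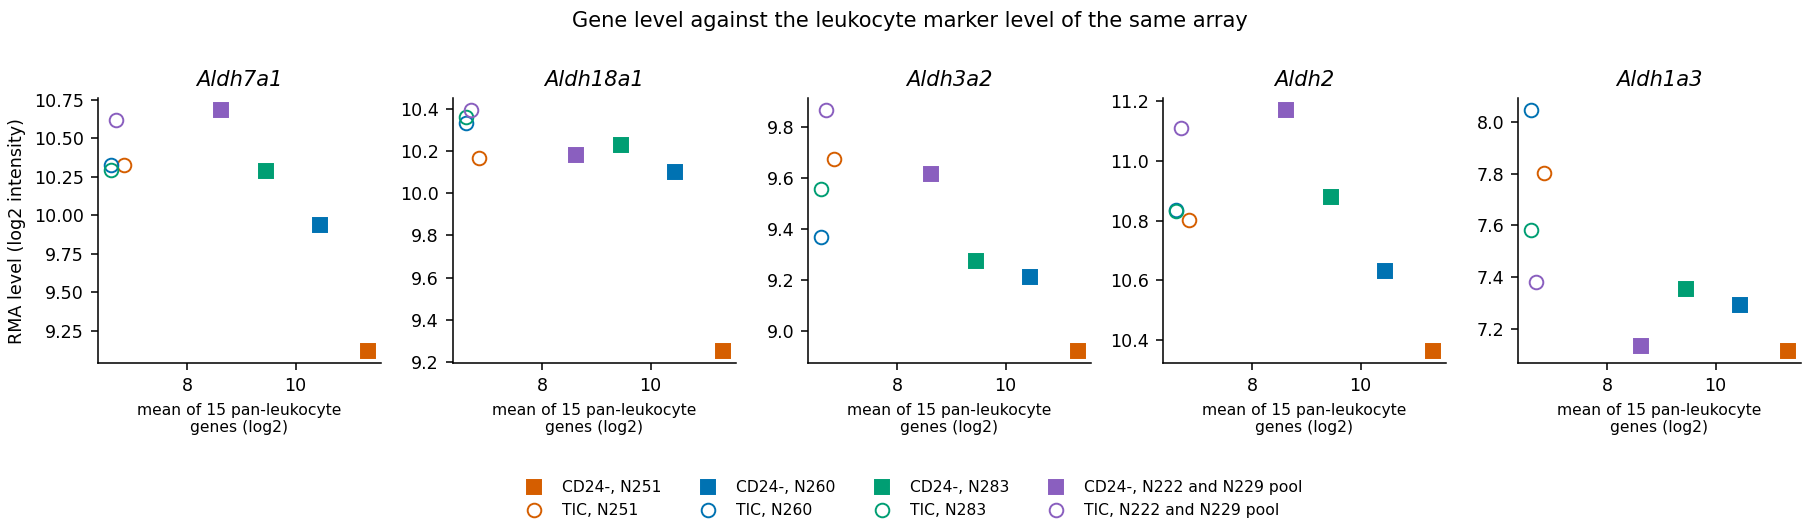
Level of 5 genes (vertical axes, log2 intensity, each with its own range) against the mean log2 level of 15 pan-leukocyte genes in the same array: filled squares are CD24- arrays, open circles TIC arrays, and colours the tumors. The TIC arrays lie at a leukocyte mean of 6.58 to 6.82, and Aldh7a1 spans 9.12 to 10.68 over the CD24- arrays.

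Markers of other cell types give the remaining makeup of the fractions. The mean of 17 fibroblast markers was 6.74 to 6.93 in the TIC arrays and 7.10 to 7.47 in the CD24- arrays (0 of 17 called, 1 lower with the replicate block). The gene was Thy1, which is also among the T and NK cell markers and was at 9.79, 8.90, 8.15 and 7.27 in the CD24- arrays of N251, N260, N283 and the pool, the order of the pan-leukocyte mean. The mean of 14 endothelial markers was 6.36 to 6.60 in the TIC and 6.50 to 6.88 in the CD24- arrays (0 called). Means of 9 adipocyte markers were 5.98 to 6.30 and 6.17 to 6.71 (0 called, with Lpl, lipoprotein lipase, lower under the block). Lpl was at 10.07, 9.87, 8.82 and 7.95 in the CD24- arrays of N251, N260, N283 and the pool, again the order of the pan-leukocyte mean. Of 17 T and NK cell markers 3 were called lower (5.93 to 6.17 against 6.91 to 9.29), and of 11 dendritic cell markers 3 (6.34 to 6.53 against 7.09 to 8.20). The mean of 13 basal and myoepithelial markers was 7.71 to 7.96 and 7.53 to 7.81 (0 called; Oxtr, the oxytocin receptor, higher with the block).

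Over all genes the direction went with intensity. In 4 bins of equal size by mean level, the median difference was 0.001 with 49.7% of genes below 0 in the dimmest bin, -0.002 with 50.8% in the next, 0.09 with 33.4% in the third, and 0.13 with 28.2% in the brightest. Aldh1a1, Aldh1a2 and Aldh3a1 lay in the dimmest bin and Aldh1b1 in the next, so the 3 genes that were lower in every tumor are all in the 2 dimmer bins. There, 9.15% and 16.2% of genes were lower in all 4 tumors. Aldh1a3 and Aldh1l1 lay in the third bin and Aldh2, Aldh3a2, Aldh7a1 and Aldh18a1 in the brightest. All 6 had a mean difference above 0, as most genes of these bins did, and 3 of the 6 were higher in all 4 tumors, where 34% and 34.9% of genes in the bins were.

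Of the other 11 measured aldehyde dehydrogenase genes 0 were called in either direction, also under the replicate or the random block, with a median difference of 0.04. Aldh3b1, an enzyme of lipid-derived aldehydes, had the lowest p among them. Its TIC values were 8.08 to 8.33 and its CD24- values 9.40 for N251, 8.74 for N260, 8.66 for N283 and 8.45 for the pool. The groups did not overlap, as for 9.87% of all genes in either direction, and the CD24- values had the order of the pan-leukocyte mean. The difference was -0.63 ± 0.19 (SE, adjusted p = 0.193), from -1.33 in N251 to -0.23 in the pool. Aldh4a1, which breaks down the same pyrroline-5-carboxylate that the product of Aldh18a1 makes, differed by 0.32 ± 0.10 (SE, adjusted p = 0.223) and was higher in all 4 tumors. Its groups did not overlap either, with the TIC fraction above (5.19% of all genes). Without a block the widest intervals were those of Aldh3b2 (-1.14 to 1.22) and Aldh3b3 (-0.93 to 0.86), adjacent copies whose rows could share signal. With the replicate block they narrowed to -0.59 to 0.67 and -0.49 to 0.43.

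**Figure D4:**
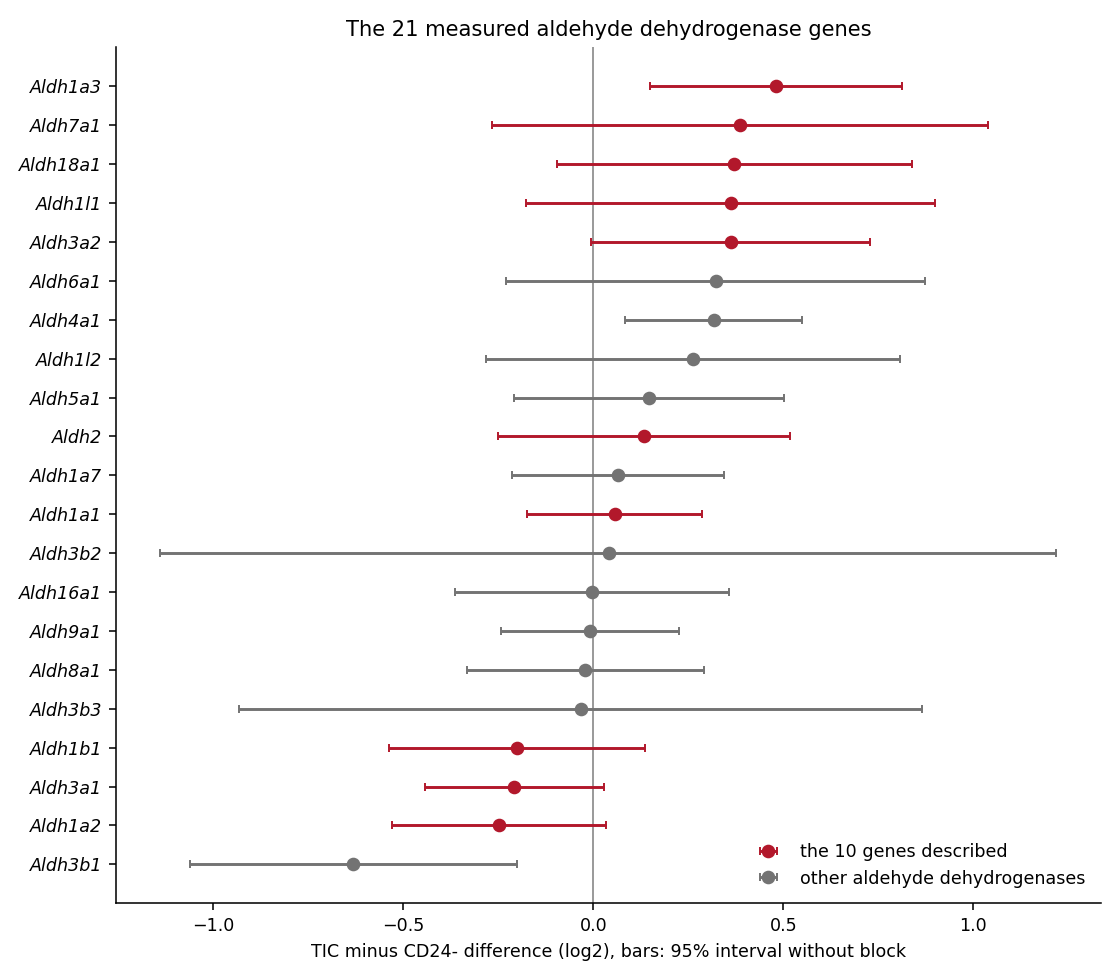
TIC minus CD24- difference (horizontal axis, log2) with its 95% interval from limma without a block for the 21 measured aldehyde dehydrogenase genes, in order of the difference. Means run from -0.63 (Aldh3b1) to 0.48 (Aldh1a3). Before adjustment 3 of the 21 intervals, those of Aldh1a3, Aldh4a1 and Aldh3b1, do not include 0, as for 14.3% of all genes. With the replicate block it is 9 of 21, against 22.3% of all genes.

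Genes that work beside these enzymes were mostly not called either. Of 21 measured genes of the retinoid pathway, which carry, make, sense or break down retinoic acid, 0 were called with or without a block, and the median difference was -0.01. The lowest p was that of Rxra, a receptor that pairs with the retinoic acid receptors (-0.23 ± 0.09 SE, adjusted p = 0.297, lower in all 4 tumors). Of 11 alcohol dehydrogenases, reductases and related enzymes 0 were called (median 0.19), and Adh5, the formaldehyde-clearing alcohol dehydrogenase, differed by 0.30 ± 0.14 (SE, adjusted p = 0.377).

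Folate enzymes are the setting of Aldh1l1. Of 16 measured, 0 were called without a block, 1 was higher with the replicate block and 2 with the random block, with a median difference of 0.23. Tyms, the thymidylate synthase of dividing cells, averaged 9.63 ± 0.34 (SD, n = 4) over the TIC arrays and 8.81 ± 0.35 over the CD24- arrays. It was higher in all 4 tumors, by 0.61 to 1.05, with a mean difference of 0.82 ± 0.21 (SE, 1.77-fold; adjusted p = 0.140, and 0.0256 with the replicate block). Shmt1, which loads serine's carbon onto folate, differed by 0.54 ± 0.16 (SE) and was called under the random block but not in the other 2 fits (adjusted p = 0.0381, against 0.185 without a block and 0.0808 with the replicate block).

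Of 9 proline and ornithine enzymes, the setting of Aldh18a1, 0 were called (median -0.08), and Glud1, glutamate dehydrogenase, had the lowest p (-0.41 ± 0.14 SE, adjusted p = 0.234). Among 12 enzymes of lysine and choline breakdown, where Aldh7a1 acts, 0 were called (median 0.13), and Sardh, the sarcosine dehydrogenase, differed by 0.40 ± 0.13 (SE, adjusted p = 0.223). Of 12 genes of fatty aldehyde and ether lipid metabolism, beside Aldh3a2, 0 were called without a block and 1 was higher with the replicate block (median 0.10). This was Pex7, a receptor that brings enzymes into peroxisomes, which was at 8.39 ± 0.17 and 7.89 ± 0.26 (difference 0.51 ± 0.15 SE, higher in all 4 tumors, adjusted p = 0.178, and 0.0445 with the replicate block).

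Over the 8 arrays the genes whose levels most resembled Aldh1a3 were Cyb561d2 (Pearson r = 0.980), Dele1 (0.972), Zfp324 (0.965), Cyp2f2 (0.964) and Slc6a17 (0.961). Their own differences were smaller, from 0.10 (Dele1) to 0.35 (Slc6a17). Those most like Aldh7a1 were Ndufb11 (0.996), Abhd11 (0.996), Ephx2 (0.995), Arhgap21 (0.995) and Pik3c2b (0.995), with differences of 0.15 to 0.45. These are the highest correlations among all genes measured on the same 8 arrays, which share tumors and fractions, and none of the 10 genes named was called.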

How the data were processed

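RNA of 8 sorted samples was hybridised to Affymetrix Mouse Gene 1.0 ST arrays. The authors deposited log2 values made with RMA and Partek, per the submitters' processing notes, whose versions, settings and build are unknown; the log2 scale is inferred from the range (1.76 to 14.57). RMA scales arrays to each other, which hides a shift common to all genes, and compresses differences of dim genes. With 4 arrays per fraction, precision is limited by their number.

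Of 35556 rows, 21789 carried exactly 1 symbol, 1621 several and 12146 none in the platform annotation. The brightest row per gene was kept (19938 genes). RefSeq (GRCm38.p6) matched 21698 rows by gene identifier and renamed 0.

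limma 3.58.1 in R 4.3.3 (lmFit, eBayes) gave the differences, SEs, unadjusted 95% intervals and Benjamini-Hochberg adjusted p-values over all genes, without a block or filter; a call is an adjusted p under 0.05. The tumor as a replicate block was an alternative. The titles pair the fractions by tumor, and deviations from the group means correlated within each pair (r = 0.32, 0.44, 0.30 and 0.56 over genes). P-values without the block measure the spread among the 4 arrays of each fraction, and those with it the spread of the 4 tumor differences. In both, eBayes draws the spread of each gene towards a value shared over all genes. An SE can therefore be larger or smaller than a gene's own spread alone would give. The code was tested on simulated data. For 2 tumors the growth protocol has numbers (N250, N261) other than the titles (N251, N260), which were followed.

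The 10 genes and all lists were chosen with earlier results of these data known. From each list up to 3 genes called without or with the block, or else the gene with the lowest p, were named, and the 5 genes most correlated with each of 2 of the 10: the one with the lowest p and the one with the largest SD of tumor differences. Aldh4a1, Aldh1a7, Aldh3b2, Aldh3b3, Shmt1, Thy1, Lpl, Oxtr and Cd24a were named after their values were seen. For 13 listed pathway symbols no row was analysed here.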

Additional observations from a re-analysis of the deposited data

Results flagged for a closer look

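A search for arrays lying far from the other 3 of a fraction covered 34 groups of values (the 10 genes and 7 genes named from the other lists, in each fraction). It found 3, where chance gives about 1.7. Aldh18a1 was at 9.251 in the CD24- array of N251, with the other CD24- arrays at 10.101 to 10.229. In the TIC array of the N222 and N229 pool Aldh2 was at 11.11 (others 10.803 to 10.836) and Aldh7a1 at 10.621 (others 10.294 to 10.326).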

How the results depend on the processing

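The counts called and the differences of the 10 genes were recomputed under 23 alternatives, except that the filter at the median level kept 6 of the 10; the replicate block without N251 was chosen after seeing the data. The count of 0 called among the 10 genes became 1 under a random tumor block and stayed at 0 in the other 22. Adjusted p-values of Aldh1a3 ran from 0.0496 to 0.637. The count of 0 called among the 92 other listed enzymes and pathway genes became 2 with the tumor as a replicate block, 3 with the random block, 4 with array weights (Aldh3b1, Glud1, Shmt1 and Tyms) and 2 under the replicate block once N251 was left out. The Aldh1a1 difference turned to -0.003 without the TIC array of N251 and was up to 0.123 when single arrays or tumors were left out; the other 9 genes kept their sign, although Aldh2 came to 0.00 without the CD24- array of N251. Aldh7a1 ran from 0.09 to 0.61 and Aldh18a1 from 0.14 to 0.47. Median centring moved the median of all genes from 0.04 to 0.09 and cyclic loess to 0.002. Over all genes, 10 higher and 148 lower became 172 and 218 with the replicate block, 430 and 606 with the random block and 191 and 778 with array weights. Among the genes named here, the replicate block changed the calls of Tyms and Pex7 and, among the cell type markers, of Thy1, Lpl and Oxtr.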
